A study of Mus musculus with 18 samples.

Results

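Genes of the response to endoplasmic reticulum (ER) stress and of ER turnover, 10 in all, were examined in adipose RNA of mice on a high-fat diet (HFD): Hspa5, Atf6, Ern1, Eif2ak3, Xbp1, Atf4, Ddit3, Dnajb9, Herpud1 and Fam134b. They are 10 of the 52093 gene symbols in the deposited tables and were taken by name. Where a symbol had several transcript rows, the row was chosen by its RPKM, as that with the highest mean over all samples. The levels below are thus in part what chose the rows. This rule mattered for Eif2ak3 alone, whose row had a mean of 2.87 RPKM (a read count divided by transcript length and by the library total) over the 18 samples, against 0.0941 and 0.0979 RPKM for its other rows. The 18 RNA-seq libraries came from male wild-type mice which had eaten HFD over 12 weeks. The sources give the strain as C57BL/6, C57BL/6J or C57BL/6NTac, and the age as 16 weeks, although the stated age at the switch to HFD would make the mice older at the end of feeding. They comprised 6 of adipocytes from inguinal white adipose tissue (iWAT), 6 of adipocytes from epididymal white adipose tissue (eWAT) and 6 of whole, snap-frozen brown adipose tissue (BAT), labelled as brown adipocytes in 1 label field. Below, iWAT and eWAT stand for the isolated adipocytes. White adipocytes were freed by collagenase digestion and floated off the other cells. A treatment field of the labels gives regular chow for every library, against their titles and the study's methods, and the libraries were taken as HFD. No library from mice on chow or from mice under an ER stressor was analysed here, so the comparisons are between tissues of HFD mice.

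Proteins that enter the ER are folded by chaperones, and unfolded proteins switch on the unfolded protein response through 3 sensors in the ER membrane. PERK (Eif2ak3) phosphorylates eIF2α, which lowers translation in general but favours that of Atf4. IRE1α (Ern1) splices the Xbp1 mRNA so that it encodes an active transcription factor, and Atf6 is cut in the Golgi to release its transcription factor domain. BiP (Hspa5), the main Hsp70 chaperone of the ER lumen, binds the sensors and is itself a classical target of the response. Misfolded proteins are retrotranslocated and degraded by ER-associated degradation (ERAD), whereas reticulophagy delivers pieces of ER to lysosomes through receptors such as Fam134b (Retreg1). Adipocytes secrete large amounts of protein, and ER stress in obese adipose tissue has been widely studied. Splicing of Xbp1, phosphorylation and protein cleavage are not seen in gene-level read counts, so the values below are mRNA levels of these genes and not a measure of stress signalling.

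The promoters of Hspa5 and Herpud1 are shown because they hold the ER stress elements that a search of the members' promoters found. RefSeq start sites (table of the GRCm38.p6 assembly) were given for 9 of the 10 members, in 12 windows of 250 bases before to 50 after the start. Fam134b, listed there as Retreg1, had 4 of these windows, and its single row of counts does not separate transcripts from the 4 starts. Each window was placed on NCBIM37 (mm9) by an exact match. Capitals mark the motifs.
Hspa5 (chr2:34627360-34627659, plus strand): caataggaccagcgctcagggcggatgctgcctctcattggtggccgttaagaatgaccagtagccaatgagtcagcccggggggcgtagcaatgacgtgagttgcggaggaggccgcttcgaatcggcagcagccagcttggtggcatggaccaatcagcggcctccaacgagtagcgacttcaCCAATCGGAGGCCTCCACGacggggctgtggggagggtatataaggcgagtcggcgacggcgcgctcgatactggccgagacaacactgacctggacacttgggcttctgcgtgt
Herpud1 (chr8:96910079-96910378, plus strand): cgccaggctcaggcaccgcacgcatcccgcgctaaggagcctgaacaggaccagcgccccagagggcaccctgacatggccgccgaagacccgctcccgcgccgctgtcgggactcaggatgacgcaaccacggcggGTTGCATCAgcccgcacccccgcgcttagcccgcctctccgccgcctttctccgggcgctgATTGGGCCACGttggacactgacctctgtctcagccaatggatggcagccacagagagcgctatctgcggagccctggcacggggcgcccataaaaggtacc
The capitals in the Hspa5 promoter are an ER stress response element (ERSE, searched as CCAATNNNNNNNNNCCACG), which begins at position -65 from the start site. In the Herpud1 promoter they are a C/EBP-ATF response element (CARE, TGATGNAAN) on the other strand from position -113 and an ERSE-II (ATTGGNCCACG) from position -52. Both strands of all windows were searched, and UPRE (TGACGTGG) was searched as well. ERSE was present in 39 of 32851 RefSeq promoters of this length (0.119%), ERSE-II in 12 (0.0365%), UPRE in 222 (0.676%) and CARE in 1299 (3.95%). No exact match to any of the 4 motifs was found in the windows of the other 7 members with a start site. Variants of the motifs and sequence outside the windows were not searched, so further elements may have been missed in any member. None of the 3 motifs found overlapped another, and a match is a description of the sequence, not of binding.

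Reads on the transcript rows numbered 24655056 to 42518483 per library, and every member had at least 122 reads in each. TMM factors averaged 1.21 in iWAT, 1.27 in eWAT and 0.658 in BAT. The choice of scaling therefore bears on each comparison with BAT: with TMM scaling, all genes had a median log2 fold change of 0.014 for iWAT over BAT and -0.017 for eWAT over BAT, and without it these medians were 0.87 and 0.89. TMM was used for the tests, whereas RPKM levels carry no such scaling. The library total behind RPKM was above the reads on the rows in every white adipocyte library and below them in every BAT library, so RPKM differences from BAT are smaller than those of counts without TMM. A difference from BAT is given below relative to the median gene. Summed RPKM of 6 macrophage markers was 163 to 311 in iWAT, 812 to 1223 in eWAT and 5.63 to 11.1 in BAT, with all 6 genes higher in eWAT than in each other tissue by the test described next. Summed RPKM of 10 immediate early and heat shock genes, which can be induced when tissue is digested, was 2760 to 5037, 2223 to 3444 and 48.4 to 422, with the highest BAT value in mouse 1. All 10 were higher in both white depots than in BAT, and their part in the results was not tested. Of 6 adipocyte markers, all 6 were higher in iWAT than in eWAT by the same test, with sums of 11300 to 15792 against 2540 to 7854 RPKM, and 5487 to 6737 in BAT. Brown adipocyte markers summed to 2234 to 3028 RPKM in BAT, against at most 17.2 in any white adipocyte library. Libraries of BAT were run in lanes 3 and 4 and those of white adipocytes in lanes 1 and 2, so tissue, isolation and lane cannot be told apart for BAT.

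**Figure D1:**
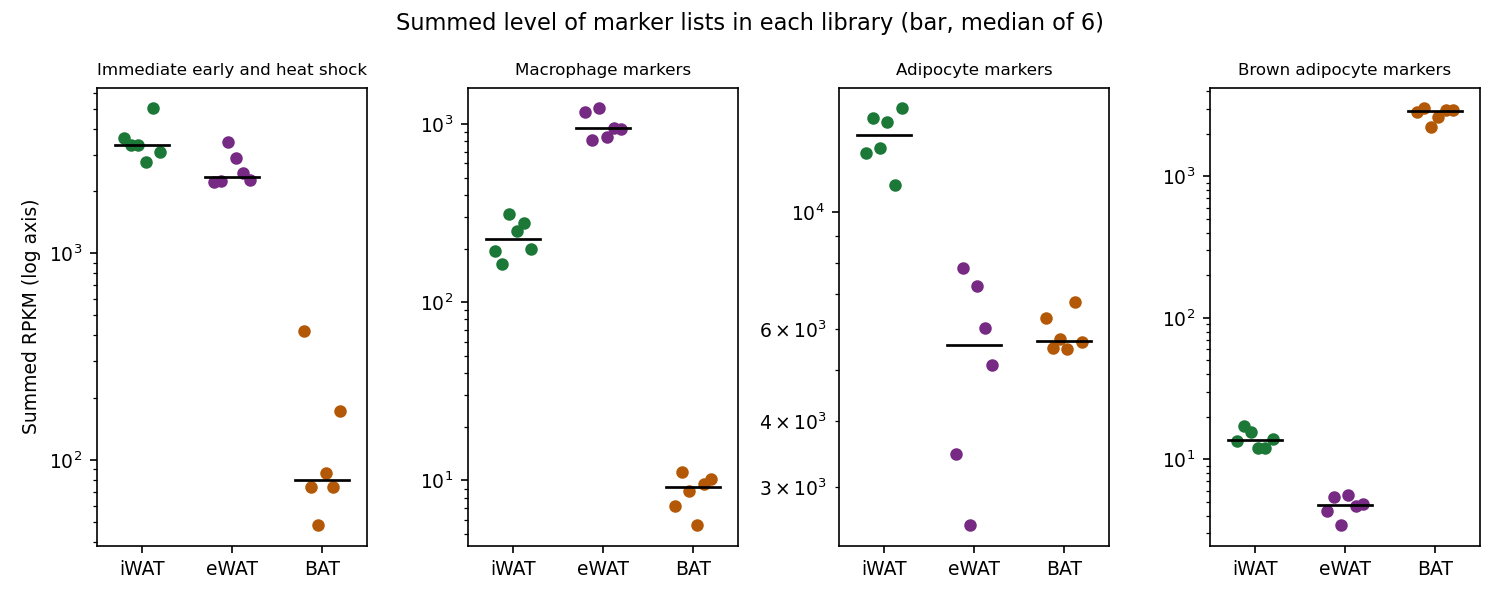
Summed RPKM on a log axis of 4 marker lists in each of 18 libraries, by tissue, with 1 point per library and a bar at the median of 6. Macrophage markers were highest in eWAT (812 to 1223), immediate early and heat shock genes were lowest in BAT (48.4 to 422), and brown adipocyte markers reached 2234 to 3028 in BAT.

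Tissues were compared on read counts with edgeR's quasi-likelihood test (two-sided, Benjamini-Hochberg adjustment over all genes tested, adjusted p under 0.05 as the threshold), each pair on its own 12 libraries. A standard error (SE) is that of the log2 fold change. The 3 comparisons share libraries, since each tissue enters 2 of them. Between the white depots, 6 of the 10 members passed the test, 3 higher in iWAT (Xbp1, Ddit3 and Herpud1) and 3 higher in eWAT (Atf6, Ern1 and Fam134b). Of all 19623 genes tested, 68.6% passed, so the members' share was near the background, with 34.1% of all genes higher in iWAT and 34.5% higher in eWAT. Against BAT, 8 members passed in iWAT (6 higher and 2 lower) and all 10 in eWAT (8 higher and 2 lower). The background was 75.3% and 82.5%, with 38.1% and 41.1% of all genes higher in the white depot and 37.2% and 41.4% higher in BAT. In RPKM, 3 members had ranges higher in eWAT than in iWAT with no overlap (22.8% of all genes), 7 had ranges higher in iWAT than in BAT (51.8%) and 8 higher in eWAT than in BAT (49.2%). Without TMM, 9 members were higher than in BAT in each white depot and none passed as lower, and of all genes 13703 were higher and 3054 lower in iWAT (7528 and 7336 with TMM) and 12965 and 4061 in eWAT (8243 and 8318). In bulk RNA, fewer cells of a type and less RNA per cell cannot be told apart.

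**Figure D2:**
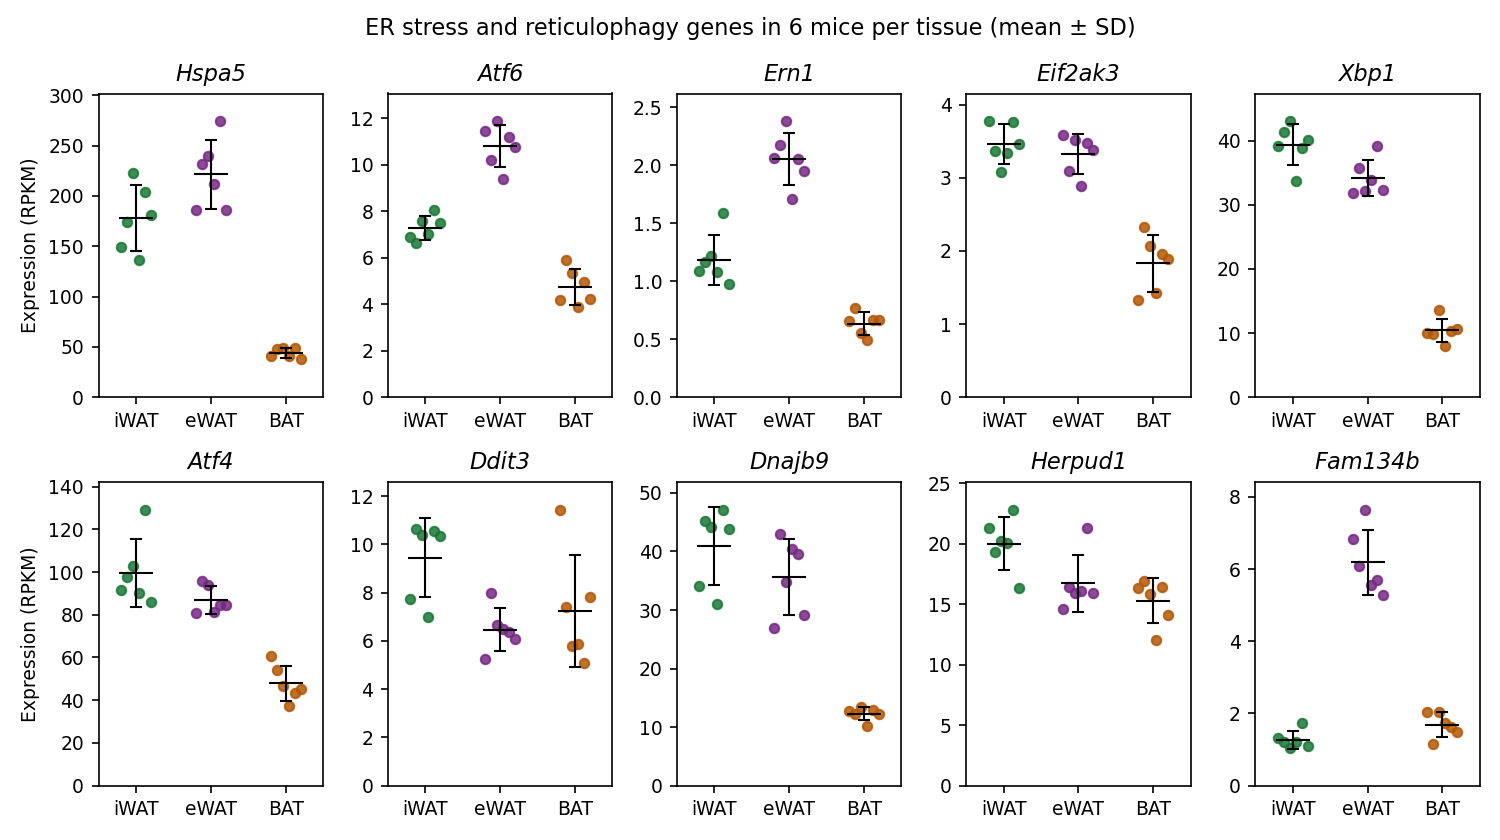
Expression of the 10 members (RPKM, linear axis from 0) in each mouse, by tissue, with the mean and SD of 6 mice. Fam134b stood at 5.29 to 7.65 RPKM in eWAT and at most at 2.05 in the other tissues, while all BAT values of Hspa5, Xbp1 and Dnajb9 lay below all values of the white depots.

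Hspa5 (chromosome 2, 34627490 to 34633067 of NCBIM37, as for all spans below), the ER chaperone BiP, was the most abundant member in both white depots. Its lowest, median and highest RPKM were 137, 178 and 223 in iWAT, 186, 222 and 274 in eWAT and 37.9, 44.5 and 49.0 in BAT. The BAT libraries lay below every white adipocyte library, whereas the white depots overlapped. Hspa5 was 2.64-fold higher in iWAT than in BAT (log2 1.40, SE 0.13, adjusted p = 6.7e-08) and 3.32-fold higher in eWAT (log2 1.73, SE 0.12, adjusted p = 2.7e-09), on the TMM scale. It was higher in each of the 4 mice that gave both tissues of a comparison. Between the white depots, RPKM was higher in eWAT in 6 of 6 mice (5 of 6 after TMM scaling), but the difference did not pass the test (log2 iWAT over eWAT -0.31, 95% interval -0.61 to -0.010, adjusted p = 0.0619). It passed with the mouse as a block (log2 -0.31, adjusted p = 0.0339), with limma on RPKM, without TMM, in a fit of all 18 libraries, and when iWAT mouse 3, eWAT mouse 1 or eWAT mouse 16 was left out. The difference in mean log2 TMM-scaled RPKM, iWAT over eWAT, was -0.41 within lane 1 (2 iWAT and 4 eWAT libraries). Within lane 2 (4 iWAT and 2 eWAT libraries) it was -0.10. Within-lane values of other members are of the same kind and rest on the same few libraries.

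Among the sensors, Atf6 and Ern1 were higher in eWAT than in iWAT in all 6 mice. Their rows span chromosome 1, 172634588 to 172797902 (Atf6) and chromosome 11, 106255964 to 106349166 (Ern1). Atf6 RPKM was 6.62, 7.26 and 8.05 (lowest, median and highest) in iWAT, 9.38, 10.96 and 11.9 in eWAT and 3.87, 4.59 and 5.92 in BAT. Ern1 RPKM was 0.979, 1.12 and 1.59 in iWAT, 1.71, 2.06 and 2.38 in eWAT and 0.496, 0.658 and 0.769 in BAT. For both genes, the RPKM ranges of the 3 tissues did not overlap, with eWAT highest and BAT lowest. The log2 fold change of iWAT over eWAT was -0.56 for Atf6 (SE 0.066, adjusted p = 8.7e-06) and -0.79 for Ern1 (SE 0.10, adjusted p = 1.9e-05). The within-lane differences in mean log2 TMM-scaled RPKM were -0.57 and -0.59 in lanes 1 and 2 for Atf6, and -0.81 and -0.70 for Ern1. The higher level in eWAT moved with the macrophage markers given above, whose part was not tested. In iWAT over BAT the markers had a median log2 of 4.13, against 0.011 for Atf6 and 0.29 for Ern1.

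Relative to the median gene, the sensors differed from BAT by less than Hspa5 did. Ern1 was higher than in BAT by 0.29 in iWAT on the log2 scale (SE 0.10, adjusted p = 0.0157, and 0.0881 with the mouse as a block) and by 1.11 in eWAT (SE 0.088, adjusted p = 1.2e-08). Atf6 was higher in eWAT by 0.60 (SE 0.095, adjusted p = 3e-05). In iWAT its log2 difference from BAT was 0.011 (95% interval -0.17 to 0.20, adjusted p = 0.914), although the RPKM ranges did not overlap. Without TMM this value was 0.87. Eif2ak3 (chromosome 6, 70794509 to 70855239), the PERK kinase, had RPKM of 3.07, 3.42 and 3.78 in iWAT, 2.89, 3.43 and 3.59 in eWAT and 1.33, 1.93 and 2.33 in BAT. The counts of Eif2ak3 may be uncertain in part, since AK086414 on the opposite strand shares 2449 bases with its span. That row had a mean of 1.03 RPKM over the 18 libraries. Whether the shared bases lie in exons of Eif2ak3 was not tested. The white depots overlapped almost entirely and differed by 0.066 on the log2 scale (95% interval -0.074 to 0.21, adjusted p = 0.382). Eif2ak3 exceeded BAT by 0.31 in iWAT (SE 0.11, adjusted p = 0.0168) and by 0.28 in eWAT (SE 0.12, adjusted p = 0.0397). The latter call was lost with the mouse as a block (adjusted p = 0.0820), when the rows of the gene were summed (0.0853), and when any 1 of 8 libraries was left out (eWAT mouse 1, 3, 5 or 16, BAT mouse 1, 16, 17 or 18).

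Of the transcription factors, Xbp1 (chromosome 11, 5420662 to 5425896), the substrate of IRE1α, showed a wide gap between white adipocytes and BAT. Its RPKM was 33.8, 39.6 and 43.1 in iWAT, 31.8, 33.1 and 39.1 in eWAT and 7.96, 10.2 and 13.6 in BAT. No BAT library reached the lowest white adipocyte library. Xbp1 was 2.49-fold higher in iWAT (log2 1.31, SE 0.11, adjusted p = 2.3e-08) and 2.18-fold higher in eWAT (log2 1.13, SE 0.11, adjusted p = 9.5e-08) than in BAT. The difference between the white depots was small, with a log2 of 0.21 in favour of iWAT (SE 0.079, adjusted p = 0.0275) in 4 of 6 mice. That call was lost with the mouse as a block (adjusted p = 0.0551), without TMM, in a fit of all 18 libraries, and when any 1 of 6 libraries was left out (mouse 2, 3 or 16 of iWAT, mouse 1, 3 or 16 of eWAT).

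Atf4 (chromosome 15, 80085614 to 80087971), the factor whose translation rises when eIF2α is phosphorylated, was the second most abundant member in white adipocytes. RPKM was 85.9, 94.6 and 129 in iWAT, 81.0, 84.5 and 95.9 in eWAT and 37.5, 46.0 and 60.6 in BAT. Atf4 was higher than in BAT by 0.45 on the log2 scale in iWAT (SE 0.10, adjusted p = 0.00103) and by 0.27 in eWAT (SE 0.090, adjusted p = 0.0119), and the latter call was lost with the mouse as a block (adjusted p = 0.173). In all 6 mice it was higher in iWAT than in eWAT, by 0.20 in the fit (SE 0.088, adjusted p = 0.0548), which did not pass the test. It passed with DESeq2 (adjusted p = 0.0276) and when iWAT mouse 1, 4 or 16 or eWAT mouse 2 was left out.

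Ddit3 encodes CHOP, a factor that Atf4 induces and that is tied to cell death under lasting stress. Its RPKM was 7.0, 10.4 and 10.6 in iWAT, 5.23, 6.42 and 7.98 in eWAT and 5.07, 6.63 and 11.4 in BAT. All 3 tissues overlapped, and the highest BAT value was that of mouse 1, the BAT library with the most immediate early and heat shock RNA. Ddit3 was higher in iWAT than in eWAT in 6 of 6 mice (log2 0.56, SE 0.13, adjusted p = 0.00175). Relative to the median gene it was lower in eWAT than in BAT (log2 -0.75, SE 0.16, adjusted p = 0.000503), but without TMM this value was 0.16, with limma on RPKM and a pseudocount of 0.1 it was -0.12 and did not pass, and without BAT mouse 1 it was -0.60. For iWAT against BAT the log2 value was -0.22 with TMM (95% interval -0.59 to 0.15, adjusted p = 0.263), -0.061 without BAT mouse 1 and 0.63 without TMM. The counts of Ddit3 are uncertain, because a transcript row on the opposite strand, AK136907, lies wholly within the Ddit3 gene. AK136907 shares 3315 bases with the span of Ddit3 (chromosome 10, 126727830 to 126733448), and Mars shares 172. The libraries are not stated to keep the strand. AK136907 had 5.42 ± 1.22, 3.77 ± 0.363 and 4.47 ± 1.75 RPKM in iWAT, eWAT and BAT (mean ± SD, n = 6), and of all genes searched its pattern over the 18 libraries was the nearest to that of Ddit3.

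**Figure D3:**
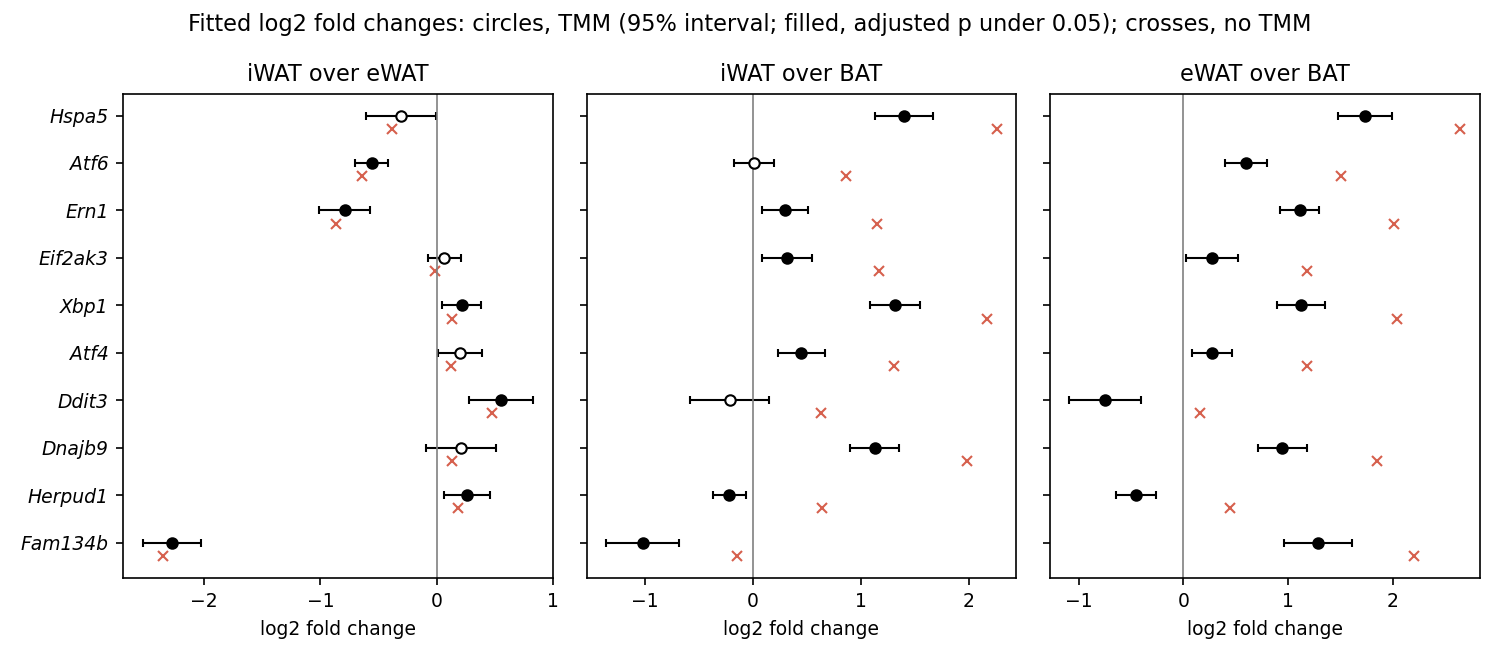
Log2 fold change of each member in 3 comparisons. Circles with bars are edgeR estimates with TMM and their 95% intervals (filled where the adjusted p is under 0.05), and crosses are estimates without TMM. Crosses lie to the right of the circles in both comparisons with BAT, which moves Ddit3 and Herpud1 from below 0 to above it (Herpud1 in iWAT over BAT from -0.22 to 0.64), whereas Fam134b in iWAT over eWAT was -2.28 with TMM and -2.36 without.

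Dnajb9 and Herpud1 act downstream, in folding and in ERAD, and they parted in the comparison with BAT. Dnajb9 (ERdj4), a cochaperone of BiP and a target of spliced Xbp1, had RPKM of 31.0, 44.0 and 47.2 in iWAT, 27.0, 37.2 and 43.0 in eWAT and 10.2, 12.6 and 13.4 in BAT. Every white adipocyte library exceeded every BAT library. Dnajb9 was 2.18-fold higher in iWAT (log2 1.13, SE 0.11, adjusted p = 1.1e-07) and 1.92-fold higher in eWAT (log2 0.94, SE 0.11, adjusted p = 1e-06) than in BAT. The white depots did not differ beyond their spread (log2 0.21, 95% interval -0.096 to 0.51, adjusted p = 0.205), with -0.043 within lane 1 and 0.57 within lane 2. Its row spans chromosome 12, 45286244 to 45311283.

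Herpud1 (chromosome 8, 96910338 to 96919277), a membrane protein that helps to assemble the ERAD complex, had RPKM of 16.3, 20.1 and 22.8 in iWAT, 14.6, 16.02 and 21.3 in eWAT and 12.0, 16.1 and 16.96 in BAT. The 3 tissues overlapped, and eWAT mouse 5 lay well above the other eWAT libraries. Herpud1 was higher in iWAT than in eWAT in 6 of 6 mice in RPKM and in 5 of 6 after TMM scaling (log2 0.26, SE 0.092, adjusted p = 0.0217), a call that was lost without eWAT mouse 1 and without TMM. Relative to the median gene it was lower than in BAT by 0.22 in iWAT (log2 -0.22, SE 0.071, adjusted p = 0.0115) and by 0.46 in eWAT (log2 -0.46, SE 0.089, adjusted p = 0.000212). Without TMM these values were 0.64 and 0.45, so the direction rests on the scaling, and without a filter on low counts the former was -0.12 and did not pass (adjusted p = 0.249). Its share of the members' summed RPKM does not depend on the scaling, but it depends on the other members. The share was 5.06 ± 0.789% in iWAT, 3.95 ± 0.326% in eWAT and 10.4 ± 0.470% in BAT (mean ± SD, n = 6). The mean sum itself was 400.4, 424 and 146 RPKM in the same order, with Hspa5 at medians of 178, 222 and 44.5. Since the RPKM ranges of Herpud1 overlapped, the larger share in BAT went with a smaller sum and does not show a higher level of Herpud1.

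Fam134b (chromosome 15, 25773019 to 25903442), which anchors ER membrane to the autophagy machinery, differed most between the white depots. Its RPKM was 1.05, 1.20 and 1.73 in iWAT, 5.29, 5.90 and 7.65 in eWAT and 1.15, 1.68 and 2.05 in BAT. Every eWAT library stood above every library of the other tissues, which overlapped with each other in RPKM. Fam134b was 4.85-fold higher in eWAT than in iWAT (log2 iWAT over eWAT -2.28, SE 0.12, adjusted p = 8.7e-08), in 6 of 6 mice, with within-mouse log2 values on TMM-scaled RPKM from -2.68 to -1.76. The value was -2.30 within lane 1 and -2.12 within lane 2. It was the only member past an added threshold of 1 on the absolute log2 scale between the white depots. Fam134b was 2.44-fold higher in eWAT than in BAT (log2 1.29, SE 0.15, adjusted p = 1.3e-06). In iWAT it was lower than in BAT by a log2 of -1.02 (SE 0.16, adjusted p = 2.7e-05), and this call was lost without TMM (log2 -0.15, adjusted p = 0.385). The excess in eWAT moved with the macrophage markers, whose median log2 of iWAT over eWAT was -2.10 over the 6 genes. In eWAT over BAT both were higher as well (marker median 6.57). In iWAT over BAT the markers were higher (median log2 4.13), whereas Fam134b was lower with TMM (-1.02) and did not pass without it (-0.15). The part of macrophages was not tested.

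Within a tissue, the order of the members by RPKM, which is per length of transcript, was similar in the white depots. Hspa5 was first and Atf4 second with ranges that did not overlap, followed by Dnajb9 and Xbp1, whose ranges overlapped, and then by Herpud1. Ern1 was last in each tissue, with overlap with Fam134b in iWAT. In BAT the ranges of Atf4 (mean 48.0 RPKM) and Hspa5 (mean 44.2) overlapped, and so did those from Herpud1 down to Atf6, neighbour by neighbour. Fam134b was eighth in eWAT, where it overlapped with Ddit3, and ninth in the other tissues. Hspa5 made up 44.2 ± 2.86% of the members' summed RPKM in iWAT, 52.1 ± 2.44% in eWAT and 30.4 ± 3.16% in BAT. The summed RPKM itself was 400.4 ± 53.9, 424 ± 47.01 and 146 ± 15.0.

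The other genes of the pathway were read from the same fits, by lists. Of the 18 ER chaperones and folding enzymes, 17 were higher in eWAT than in iWAT, none was higher in iWAT and Dnajc3 did not pass, with a median log2 of -0.52 against 0.0014 for all genes. This moved with the macrophage markers (median log2 -2.10), whose part was not tested. Within eWAT, the summed RPKM of the chaperones was highest in mice 1 and 3 (952 and 935). These mice also had the highest macrophage sums (1164 and 1223) and the lowest adipocyte marker sums (3469 and 2540) of that depot. Within iWAT, mice 3 and 5 were highest in chaperones (627 and 604) and in macrophage markers (311 and 278). Hspa5 was highest in the same iWAT mice (223 and 204 RPKM). In eWAT it was 186 in mouse 1, the lowest of that depot, and 240 in mouse 3. Other sums differed between these libraries too. In iWAT, mouse 5 had the highest immediate early and heat shock sum (5037, against 3349 in mouse 3). It also had the highest endothelial marker sum (280, against 120) and the lowest adipocyte marker sum (11300, against 13266). In eWAT, the immediate early and heat shock sum was highest in mouse 3 (3444) and lowest in mouse 1 (2223). Which of these bears on the chaperones was not tested. Calr (calreticulin) had 140.1 ± 11.2 RPKM in iWAT, 235 ± 17.4 in eWAT and 43.0 ± 4.90 in BAT. Sdf2l1, a BiP cofactor, had 10.0 ± 1.80, 29.9 ± 2.84 and 1.08 ± 0.249 RPKM, and Ero1lb, an oxidase that drives disulfide formation, had 2.32 ± 0.490, 7.48 ± 1.31 and 1.02 ± 0.0691. In 15 of the 18 genes, these 3 among them, the RPKM range lay higher in eWAT than in iWAT with no overlap (22.8% of all genes), unlike Hspa5. The log2 of iWAT over eWAT was -0.74 for Calr (SE 0.076), -1.57 for Sdf2l1 (SE 0.11) and -1.68 for Ero1lb (SE 0.14). Against BAT, 17 of 18 were higher and Hyou1 was lower in iWAT (median log2 0.65), and 18 of 18 were higher in eWAT (median log2 1.25). Without TMM all 18 were higher in both.

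Of 16 ERAD genes, 15 had enough reads to be tested. Between the white depots 2 were higher in iWAT and 9 in eWAT (median log2 -0.17), with the largest difference for Edem2, a mannosidase-like ERAD factor (log2 -0.92, SE 0.10, adjusted p = 7.1e-06). Against BAT, 13 were higher and 1 lower in iWAT and 14 were higher and 1 lower in eWAT. The lower gene was Derl1 both times, as Herpud1 was, and without TMM none of the 15 was lower. Os9, a lectin that marks misfolded glycoproteins, had 22.1 ± 1.06 RPKM in iWAT, 25.4 ± 1.86 in eWAT and 5.98 ± 0.679 in BAT. Of 13 translocon and ER targeting genes, 12 were higher than in BAT in each white depot and Ssr4 did not pass. Between the white depots 2 were higher in iWAT, 6 in eWAT and 5 did not pass.

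Of the 14 genes of the ATF4 arm, 7 were higher in iWAT and 4 in eWAT (median log2 0.45). Slc7a11, the cystine transporter, fell on the other side from Ddit3, with 0.255 ± 0.0723 RPKM in iWAT, 1.09 ± 0.314 in eWAT and 0.0109 ± 0.00656 in BAT. Psat1, an enzyme of serine synthesis, had 27.9 ± 3.30, 20.6 ± 3.32 and 0.953 ± 0.257 RPKM. Against BAT, 10 of 14 were higher and 1 was lower in iWAT (median log2 1.96), and 8 were higher and 4 lower in eWAT (median log2 1.56). Without TMM these counts were 12 and 0 in each. Atf3, a stress factor that is also an immediate early gene, had 151 ± 48.0 RPKM in iWAT, 203 ± 43.2 in eWAT and 5.67 ± 7.01 in BAT. Ppp1r15a (GADD34), the subunit that directs dephosphorylation of eIF2α, had 75.3 ± 17.3, 70.8 ± 15.3 and 4.23 ± 1.14 RPKM. These 2 genes were higher than in BAT together with the immediate early and heat shock list, whose median log2 was 4.24 in iWAT and 3.60 in eWAT, and the part of digestion was not tested. Atf4 itself differed from BAT by 0.45 and 0.27.

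Of eIF2α (Eif2s1) and its 3 other kinases, 1 gene was higher in iWAT (Eif2ak2, the kinase PKR, log2 0.28, SE 0.069) and 3 in eWAT. Against BAT, 2 were higher and 1 lower in iWAT, and 3 were higher in eWAT, whereas all 4 were higher in both without TMM. Of 9 ATF6 relatives and proteases that cut them, 3 were higher in iWAT and 2 in eWAT. Mbtps2, the site-2 protease that releases Atf6, followed Atf6, with a log2 iWAT over eWAT of -0.90 (SE 0.094, adjusted p = 2.8e-06), and so did Atf6b with -0.34 (SE 0.059, adjusted p = 0.00014). Nfe2l1, an ER-anchored factor that induces proteasome genes, lay the other way with 0.72 (SE 0.13, adjusted p = 0.000217). So did Mbtps1, the other protease of the list, with 5.31 to 5.93 RPKM in iWAT and 4.48 to 4.91 in eWAT. Against BAT, 7 of the 9 were higher in iWAT, and 7 were higher and 2 lower in eWAT, with none lower without TMM.

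The strong difference of Fam134b was not matched in size by the other reticulophagy genes. Of 8 receptors and relatives, 4 were higher in iWAT and 2 in eWAT, with log2 values from -0.64 to 0.49. Fam134a, a paralog of Fam134b, was higher in eWAT (13.8 ± 0.872 against 21.7 ± 1.83 RPKM, log2 -0.64, SE 0.060, adjusted p = 1.1e-06), as was Tex264 (log2 -0.49, SE 0.062, adjusted p = 8.8e-06). Atl3 and Calcoco1 were higher in iWAT (log2 0.49 and 0.41), and the paralog Fam134c did not pass (log2 0.10, SE 0.052). Against BAT, 2 of the 8 were higher and 4 lower in iWAT (1 and 2 with the mouse as a block), and 3 were higher and 3 lower in eWAT. None was lower without TMM. Of 11 core autophagy genes, 3 were higher in iWAT and 5 in eWAT. Against BAT, 4 were higher and 5 lower in each white depot, whereas without TMM 10 were higher in each and none (iWAT) or 1 (eWAT) was lower. Sqstm1 (p62), a cargo receptor, had 114 ± 19.2 RPKM in iWAT, 194 ± 27.0 in eWAT and 35.4 ± 4.47 in BAT. Map1lc3a, 1 of the LC3 proteins to which Fam134b binds, went the other way, with 102 ± 11.9, 38.6 ± 12.8 and 97.7 ± 20.7 RPKM.

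**Figure D4:**
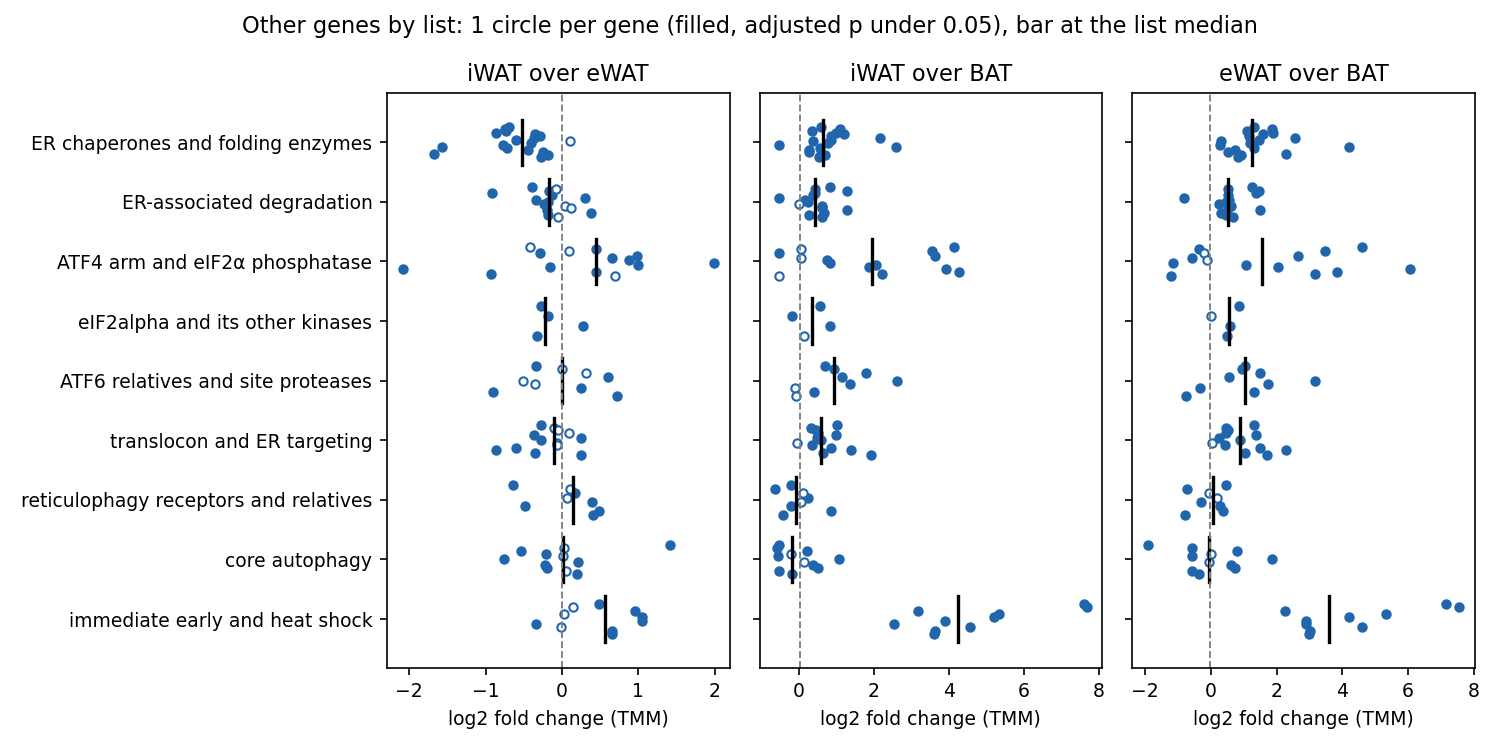
Log2 fold changes (TMM) of the other genes of the pathway in 3 comparisons, by list, with 1 circle per gene, filled where the adjusted p is under 0.05, a bar at the list median and a dashed line at the median of all genes. ER chaperones other than Dnajc3 lie left of the line in iWAT over eWAT (median -0.52) and right of it in eWAT over BAT (median 1.25), and immediate early and heat shock genes lie far right in both comparisons with BAT (medians 4.24 and 3.60).

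Likeness of pattern was measured as the root mean square difference of log2(TMM-scaled RPKM + 0.1), centred on each gene's mean, over the 18 libraries, among 15540 genes with at least 1 RPKM in a tissue. Among the members, the closest were Xbp1 and Dnajb9 (0.19), followed by Atf6 and Ern1 (0.24) and by Atf4 and Eif2ak3 (0.25). Hspa5 was nearest to Xbp1 (0.32), and Fam134b had no near member (0.69 to Ern1). Of all genes, the nearest to Hspa5 were Tnip1, Ptbp1 and Slc39a1 (0.18 to 0.19), and the nearest to Fam134b were Cdk6 (0.33), Sbk2 and Fyb (0.35). Atf6 had closer neighbours, with D19Ertd409e at 0.069. The measure is not scaled by how much a gene varies, so genes that vary more, such as Fam134b, tend to lie farther from all others. The nearest to Atf4 was Slc38a2 (0.12), an amino acid transporter, and the nearest to Xbp1 were Samd9l and Ifih1 (0.13 and 0.14).

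Whether the members moved together over the 6 mice of a tissue was tested for 4 pairs in each tissue (Hspa5 with Herpud1, Dnajb9 or Xbp1, and Atf4 with Ddit3), on log2(RPKM + 0.1), by exact two-sided permutation. None of the 12 relations passed after adjustment. The largest Pearson coefficient was that of Hspa5 and Dnajb9 in iWAT (Pearson's r = 0.876, exact permutation p = 0.0236, adjusted 0.106, Spearman's rho = 0.714, exact permutation p = 0.136, adjusted 0.350, r = 0.916 without the 2 mice farthest from the median of Hspa5). Hspa5 and Herpud1 had r = 0.815 in eWAT (exact permutation p = 0.0264, adjusted 0.106, rho = 0.657, exact permutation p = 0.175, adjusted 0.350), and r was 0.364 without the 2 farthest mice. Leaving out the farthest mice narrows the range and leaves few mice, so a lower r cannot show that a relation rested on them. In iWAT the same pair had r = 0.054 (exact permutation p = 0.935). Atf4 and Ddit3 had r = 0.456, 0.796 and 0.791 in iWAT, eWAT and BAT (exact permutation p = 0.389, 0.0264 and 0.0639, adjusted 0.467, 0.106 and 0.128). In the same order, rho was 0.657, 0.829 and 0.600 (exact permutation p = 0.175, 0.0583 and 0.242), and r without the 2 mice farthest from the median of Atf4 was 0.920, 0.419 and 0.546. Hspa5 and Xbp1 had r = 0.768, 0.791 and 0.439 (exact permutation p = 0.0556, 0.0514 and 0.460, adjusted 0.128, 0.128 and 0.502), rho = 0.600, 0.657 and 0.371, and r = -0.11, 0.333 and 0.619 without the 2 mice farthest from the median of Hspa5. Hspa5 and Dnajb9 in BAT had the largest rho (0.886, exact permutation p = 0.0333, adjusted 0.350), with r = 0.492.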

How the data were processed

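RNA-seq was from 18 libraries of HFD mice, 6 each of iWAT adipocytes, eWAT adipocytes and BAT, grouped by their titles. Libraries were prepared by the authors with the NEBNext Ultra RNA kit and run on a HiSeq instrument. The submitters' processing notes name cutadapt 1.16, HISAT2 2.1.0 and mm9, whereas the counting program and annotation are not given in the sources used here. The deposited counts are whole numbers of reads per transcript row, and the deposited RPKM was computed from them by the authors. The RPKM imply library totals of 26526123 to 41145280 reads in white adipocytes and 22935346 to 38571612 in BAT, and what they include is not given in the sources used here. Genes whose counts averaged 10 or more across the compared libraries were tested with edgeR 4.0.16 in R 4.3.3 (glmQLFit, glmQLFTest, TMM). SEs were derived from the F statistic. DESeq2 1.42.0, limma 3.58.1 on log2(RPKM + 0.1) and log2(RPKM + 1), no scaling, no filter, summed rows, all 18 libraries in 1 fit, lane as a covariate for the white depots, the mouse as a block, an added threshold of 1 on the absolute log2 scale and leaving out each library were alternatives. In simulated data with 2-fold changes, the test recovered 155 of 193 changed genes in iWAT against eWAT, 159 of 194 in iWAT against BAT and 157 of 191 in eWAT against BAT. False calls were 4.32%, 4.22% and 2.48%. The simulated sets held 19509, 18772 and 18855 genes, so few genes were changed, whereas 68.6% to 82.5% passed in the real data. The simulation therefore does not test the scaling where most genes differ.

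The same number in the titles was taken as the same mouse (6 mice for the white depots, 4 for each with BAT). Deviations from the group means of same-numbered libraries correlated by -0.25 to 0.43 between the white depots, so the pairing comes from the numbers and not from the data. Libraries of 1 tissue were distinct (chi-square over its degrees of freedom was 15.7 or more for each pair, where 1 is expected if a library is sequenced again). Each tissue's 6 mice are biological replicates. Counting error alone does not cover duplication by PCR.

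The members and the lists were chosen with earlier results of these data known. Named genes are the members and, from each list, the 3 with the highest mean RPKM and that which passed with the largest change in a comparison, plus the 3 genes nearest in pattern to each member. Hyou1, Derl1, Dnajc3, Ssr4, Mbtps1, Fam134c, AK086414 and Mars were named after their values were seen.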

Additional observations from a re-analysis of the deposited data

Results flagged for a closer look

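Of 30 groups of 6 values (10 members in 3 tissues), 2 held a value farther from the nearest other value than Dixon's 95% limit allows, where chance gives about 1 in 20 groups, or 1.5 of 30. Dnajb9 in BAT was 10.2 RPKM in mouse 16, against 12.3 to 13.4 in the other mice. Mouse 16 was also the lowest of the BAT libraries in RPKM for Atf6, Ern1, Xbp1, Atf4 and Herpud1. On TMM-scaled RPKM, compared after the values were seen, the lowest Dnajb9 value in BAT was 15.5 in mouse 2 and within the limit, and of these 5 genes only Herpud1 was lowest in mouse 16. Herpud1 in eWAT adipocytes was 21.3 RPKM in mouse 5, against 14.6 to 16.4 in the other mice, and Hspa5 and Xbp1 were highest in the same library. On TMM-scaled RPKM this Herpud1 value (19.1) was still past the limit, and so were Xbp1 in BAT mouse 5 (19.1), Herpud1 in iWAT mouse 16 (14.8) and Fam134b in iWAT mouse 5 (1.43). The differences of Herpud1 and Dnajb9 from the other tissues kept their direction without these libraries.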

How the results depend on the processing

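With an added threshold of 1 on the absolute log2 scale, 4892 of 19623 genes tested and 1 of 10 members passed for iWAT against eWAT. For iWAT against BAT these were 7363 of 19745 genes and 4 of 10 members. For eWAT against BAT they were 9830 of 20076 genes and 4 of 10 members. The remaining alternatives kept the counts of genes and of members within 1.5 times. Without TMM, Eif2ak3 in iWAT over eWAT was -0.015, Ddit3 and Herpud1 in iWAT over BAT were 0.63 and 0.64, and in eWAT over BAT 0.16 and 0.45. With limma on RPKM and a pseudocount of 0.1, Ddit3 and Herpud1 in iWAT over BAT were 0.41 and 0.39 and Herpud1 in eWAT over BAT was 0.13; with a pseudocount of 1 these were 0.37, 0.37 and 0.12. Atf6 in iWAT over BAT, near 0, was -0.036 with the mouse as a block, -0.0097 with all 18 libraries in 1 fit, and -0.037 to 0.055 over the libraries left out. The correlation of Hspa5 and Herpud1 in iWAT adipocytes was -0.029 on TMM-scaled RPKM. The fits without TMM changed the scaling alone and those on RPKM the test as well. The cause of the other changes of sign was not tested. In the paired fit, with the mouse as a block, 6, 7 and 8 members passed (6, 8 and 10 without it). Against BAT this fit rests on the 4 mice that gave both tissues, so its lost calls mix pairing with fewer mice. Of all genes, it called 6339 higher and 6216 lower in iWAT than in BAT (7528 and 7336 without it). For eWAT against BAT these were 7486 and 7663 (8243 and 8318 without it). The blocked value of each member whose call changed is given with that member, and no other member's call changed. Over the 197 comparisons of named genes that could be tested, the paired fit changed 15 calls. Depth does not limit the members, since none had fewer than 122 reads in a library.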

Other observations

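Skeletal muscle markers (Acta1, Ckm and Myh4), present where BAT carries adjacent muscle, summed to 1.18 to 91.1 RPKM in BAT, 3.77 to 15.9 in iWAT adipocytes and 1.14 to 4.83 in eWAT adipocytes. Of 4 endothelial markers, all 4 were higher in iWAT than in eWAT adipocytes (summed RPKM 99.5 to 280.0 against 33.4 to 71.2). Of 3 fibroblast and progenitor markers none passed between the white depots (33.4 to 68.5 and 35.1 to 56.8 RPKM). Markers of plasma cells, which are rich in ER, summed to at most 0.940 RPKM in any library, and those of T and B cells to at most 1.22.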
